A study of Homo sapiens with 6 samples.

Results

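Cholesterol and fatty acids are built from the same cytosolic acetyl-CoA, and this text describes 30 genes of the 2 pathways in EoL-1 cells with and without ATF3 targeting. The genes were taken by symbol from a list of synthesis enzymes and their regulators, and all 30 were found among the 35052 genes summed from the deposited transcript tables. They comprise 18 enzymes of the sterol branch, 7 of the fatty acid branch, the 4 regulators SREBF1, SREBF2, SCAP and INSIG1, and the sterol carrier STARD4. A filter on low counts kept 29 of them among 13131 genes tested. The gene left out was ELOVL6, a fatty acid elongase, which stayed at or below 0.615 CPM, reads scaled to a common library total, in every library.

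EoL-1 is a human cell line from an eosinophilic leukaemia. Polyadenylated RNA was sequenced from 3 libraries of ATF3 knockout EoL-1 cells, made with CRISPR/Cas9, and from 3 libraries of wild type EoL-1 cells, grown in the same serum-containing medium. By its title the series belongs to work on eosinophils and blood vessel growth in fat, and knockout against wild type is the one comparison that the design implies. The labels do not say whether the knockout cells were 1 clone or whether replicates were separate cultures, so the p-values given here rest on a spread between libraries that may be technical alone.

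ATF3, a stress-induced transcription factor, had 5.62, 8.33 and 4.52 CPM in the knockout libraries, against 22.9, 16.2 and 23.0 CPM in the wild-type libraries. It was lower in knockout by 1.75 on the log2 scale (log2 fold change -1.75, SE 0.25, edgeR adjusted p = 0.0098). The libraries held 26766103 to 30117281 estimated reads. Of 10 eosinophil markers, PRG3, CLC and IL5RA had 0 reads in all libraries, and 6 of the 10 stayed below 1 CPM. The summed markers were at 116, 183 and 186 CPM in knockout, against 36.8, 52.0 and 48.0 CPM in wild type, mostly RNASE2 and RNASE3. RNASE2 and RNASE3 were highest in knockout replicate 2, and EPX, SIGLEC8 and CCR3 had at most 7 reads in any library. Only the remaining markers, CEBPE and PRG2, were high in knockout replicate 3 alone. CEBPE, a granulocyte transcription factor, had 0.27, 0.98 and 4.63 CPM in knockout, against 0.29, 0.18 and 0.47 CPM in wild type, and the granule protein gene PRG2 had 0, 1 and 48 reads in knockout, against 5, 0 and 5 reads in wild type. These were named after their values were seen. The part of these shifts in the results below, many of which also stand out in knockout replicate 3, was not tested. The 8 fibroblast and epithelial markers summed to at most 1.35 CPM in any library, and the 7 lymphocyte markers to 132 to 174 CPM in knockout and 114 to 136 CPM in wild type.

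Sterol synthesis runs from acetyl-CoA through mevalonate to isoprenoid units, joins these into squalene, closes squalene to lanosterol and trims lanosterol to cholesterol. Fatty acid synthesis carboxylates acetyl-CoA, builds it into saturated chains, and then elongates and desaturates them. Both are controlled by the membrane-bound SREBP transcription factors, which SCAP escorts to the Golgi for cleavage when membrane sterol is low and which INSIG proteins hold back when it is high. Cleaved SREBP binds the sterol regulatory element, commonly beside the general factors NF-Y and Sp1. The product of SREBF2 acts mainly on sterol genes and that of SREBF1 mainly on fatty acid genes.

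Of the 26 members with a promoter entry, SREBF2 alone held the sterol element searched for. Its promoter and those of the 4 members that passed the test are shown to place these letters beside the values that follow. Each runs 5′ to 3′ along the gene's own strand from 250 bases before to 50 bases after the RefSeq start (GRCh38.p14). Capitals mark CCAAT, the NF-Y box, or ATTGG where it lies on the other strand, and TCACNCCAC, the sterol regulatory element. The windows are chr21:46228725-46229024 on the minus strand for LSS, chr11:65111622-65111921 on the plus strand for TM7SF2, chr16:88663042-88663341 on the minus strand for MVD, chr5:111512486-111512785 on the minus strand for STARD4 and chr22:41832855-41833154 on the plus strand for SREBF2.
LSS: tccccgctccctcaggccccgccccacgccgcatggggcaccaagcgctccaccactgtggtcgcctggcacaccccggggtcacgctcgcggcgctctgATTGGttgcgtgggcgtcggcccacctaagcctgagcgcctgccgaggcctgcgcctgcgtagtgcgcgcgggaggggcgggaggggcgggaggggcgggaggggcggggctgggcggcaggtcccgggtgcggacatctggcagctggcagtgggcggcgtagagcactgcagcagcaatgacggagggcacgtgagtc
TM7SF2: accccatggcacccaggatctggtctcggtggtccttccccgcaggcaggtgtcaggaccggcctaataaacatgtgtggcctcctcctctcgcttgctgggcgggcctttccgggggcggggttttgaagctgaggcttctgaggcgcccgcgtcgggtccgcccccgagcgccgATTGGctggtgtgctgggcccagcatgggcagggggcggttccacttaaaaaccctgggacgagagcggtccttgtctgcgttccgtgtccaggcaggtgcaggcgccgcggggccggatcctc
MVD: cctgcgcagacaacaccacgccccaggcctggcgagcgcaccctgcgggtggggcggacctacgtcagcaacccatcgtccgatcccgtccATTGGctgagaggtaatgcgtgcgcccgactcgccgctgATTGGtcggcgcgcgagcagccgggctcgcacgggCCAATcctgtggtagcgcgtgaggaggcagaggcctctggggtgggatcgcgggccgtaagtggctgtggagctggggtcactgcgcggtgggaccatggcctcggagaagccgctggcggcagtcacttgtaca
STARD4: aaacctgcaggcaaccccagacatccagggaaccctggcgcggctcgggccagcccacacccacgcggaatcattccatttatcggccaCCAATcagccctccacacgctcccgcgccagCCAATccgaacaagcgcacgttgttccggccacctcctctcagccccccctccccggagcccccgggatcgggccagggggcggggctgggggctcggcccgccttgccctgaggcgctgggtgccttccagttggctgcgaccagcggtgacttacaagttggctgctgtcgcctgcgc
SREBF2: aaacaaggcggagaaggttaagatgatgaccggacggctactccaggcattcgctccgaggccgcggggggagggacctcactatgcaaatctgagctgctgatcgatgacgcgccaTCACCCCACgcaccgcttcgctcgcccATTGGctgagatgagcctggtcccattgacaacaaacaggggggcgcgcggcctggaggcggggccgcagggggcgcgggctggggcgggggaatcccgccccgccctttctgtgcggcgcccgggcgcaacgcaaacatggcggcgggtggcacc

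CCAAT was present in all 4 promoters of the members that passed the test. It began 150 bases before the start in LSS and 74 bases before it in TM7SF2. STARD4 held 2 copies and MVD held 3. Among the members, 26 had promoter entries with 35 windows in all, and CCAAT on either strand was found in 24 of these windows (68.6%), belonging to 20 genes. It was found in 35.0% of the 14343 windows of tested genes and in 34.6% of all 35116 windows. It occurred in 13 of 15 sterol branch genes and 4 of 6 fatty acid branch genes. GGGCGG, the Sp1 box, was in 88.6% of member windows, against 64.9% of windows of tested genes.

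TCACNCCAC was found only in SREBF2, 133 bases before the start, and in 1.08% of windows of tested genes and 1.13% of all windows. TGACGTCA, the element bound by ATF and CREB factors, was found in 1 member, FADS1, and in 2.7% of windows of tested genes and 1.85% of all windows. TGANTCA, the AP-1 element, and TGATGNAAN, the C/EBP-ATF element, were in 0 of the 35 member windows, against 5.17% and 2.04% of windows of tested genes and 7.71% and 3.61% of all windows. All were searched on both strands, and in some windows CCAAT and ATTGG overlap each other. A match describes the letters alone, and variants of these elements were not searched for. FASN, ACAT2, FDFT1 and SQLE had no entry.

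Of the 29 members tested, 4 were higher in knockout and 0 were lower at an edgeR adjusted p of 0.05. They were LSS, TM7SF2, MVD and STARD4, so the called share was 13.8%. Of all genes tested 21.1% were called, 11.4% higher and 9.72% lower in knockout, so the share of members called higher was near the background and is no result about them. Fold changes were above 0 for 26 of 29 members (89.7%), against 50.7% of all genes, and the median log2 fold change was 0.32, against 0.0054. At an unadjusted edgeR p of 0.05, 9 of 29 members were higher and 0 lower, against 2595 higher and 2308 lower of 13131 genes. Members below 0 were PMVK, SREBF1 and ACACA. Without knockout replicate 3 the number above 0 was 20 of 30, and without both knockout replicate 3 and wild type replicate 2, a setting chosen after seeing the data, it was 19 of 29.

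**Figure D1:**
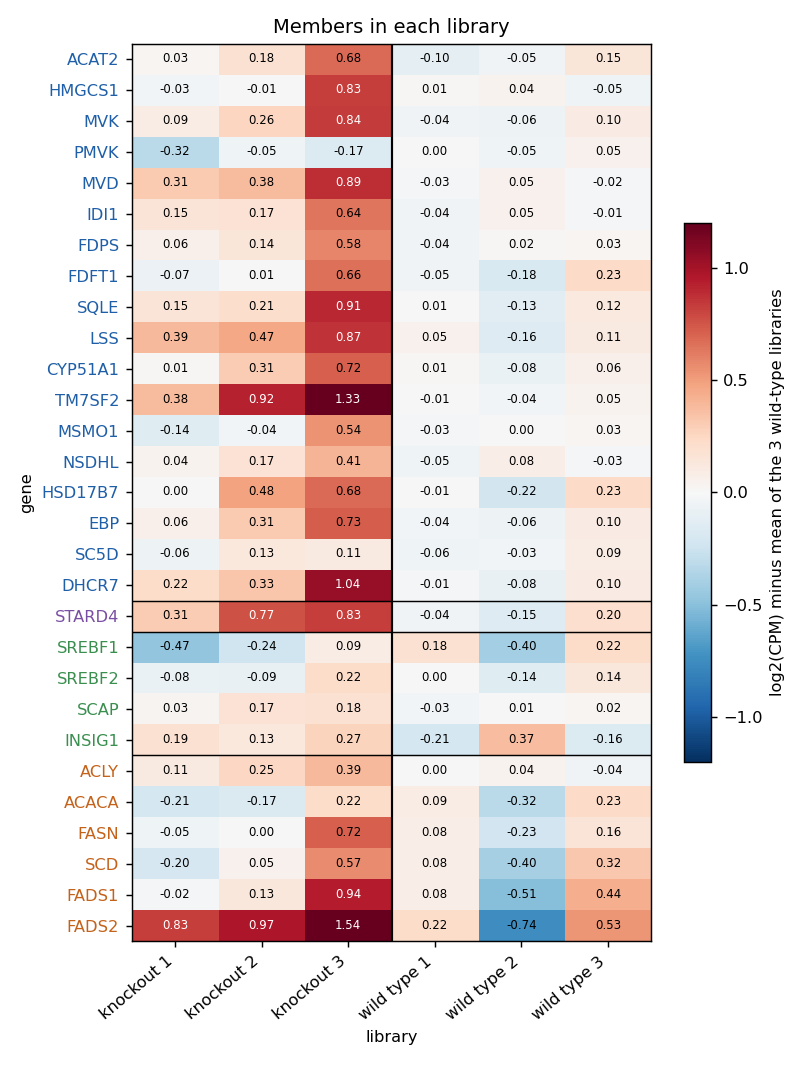
Level of the 29 tested members in each library (columns, knockout left of wild type), as log2 CPM minus the mean of the 3 wild-type libraries; blue gene names are sterol branch enzymes, purple the carrier, green the regulators and orange the fatty acid branch. Knockout replicate 3 is the highest of the 6 libraries for 24 of 29 members, and wild type replicate 2 is the lowest for 5 of the 6 fatty acid genes.

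LSS, lanosterol synthase, closes the squalene chain into the first sterol ring system. It had 63.4, 66.8 and 88.3 CPM in knockout, against 50.0, 43.3 and 52.1 CPM in wild type. All 3 knockout libraries lay above all 3 wild-type libraries. Its means were 72.8 ± 13.5 CPM and 48.5 ± 4.58 CPM (SD, n = 3 each), a log2 fold change of 0.59 (SE 0.14, edgeR adjusted p = 0.0298).

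TM7SF2 encodes a sterol reductase that acts after lanosterol is demethylated. It had 13.8, 20.0 and 26.5 CPM in knockout, against 10.5, 10.3 and 10.9 CPM in wild type. The knockout libraries spread widely while the wild-type libraries nearly coincided, and the groups did not overlap. Its log2 fold change was 0.93 (SE 0.22, edgeR adjusted p = 0.0303), the largest of any sterol branch enzyme.

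MVD, the decarboxylase that makes isopentenyl diphosphate, had 26.96, 28.2 and 40.1 CPM in knockout, against 21.3, 22.5 and 21.4 CPM in wild type. The groups did not overlap, and knockout replicate 3 stood above the other knockout libraries. MVD had a log2 fold change of 0.55 (SE 0.15, edgeR adjusted p = 0.0464).

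STARD4 carries cholesterol between membranes and makes none. It had 18.7, 25.7 and 26.97 CPM in knockout, against 14.7, 13.6 and 17.4 CPM in wild type, again without overlap. Its log2 fold change was 0.65 (SE 0.16, edgeR adjusted p = 0.0344).

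These 4 calls depended on the libraries. Without knockout replicate 3, MVD was at 0.34 (adjusted p = 0.0299), LSS at 0.42 (0.0313), TM7SF2 at 0.67 and STARD4 at 0.54, and the first 3 were still called. Without knockout replicate 1, MVD was not called (adjusted p = 0.0521) and the other 3 were. None of the 4 was called without knockout replicate 2, wild type replicate 1, wild type replicate 2 or wild type replicate 3, with adjusted p-values of at most 0.152, although every one of the 4 fold changes stayed above 0. Without wild type replicate 1, 0 of all genes tested passed, and the smallest adjusted p was 0.0503. MVD was not called with a replicate block, upper-quartile scaling, limma-voom or the GC trend removed. With an offset for the estimated transcript length only LSS was called. The share of reads assigned to retained-intron transcripts was 38.8, 35.8 and 30.05% for TM7SF2 in knockout, against 32.7, 16.6 and 21.9% in wild type, and 26.4, 26.1 and 22.9% for MVD in knockout, against 14.7, 21.2 and 23.7% in wild type. For LSS it was 15.8, 16.0 and 14.7% in knockout, against 11.9, 13.7 and 9.62% in wild type, and of these 3 genes LSS alone had shares that did not overlap between the groups. STARD4 had at most 0.16% in any library. The part of these shares in the calls was not tested. An exact permutation test of one gene in 3 against 3 libraries cannot go below a two-sided p of 0.1, the value that all 4 genes reach.

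**Figure D2:**
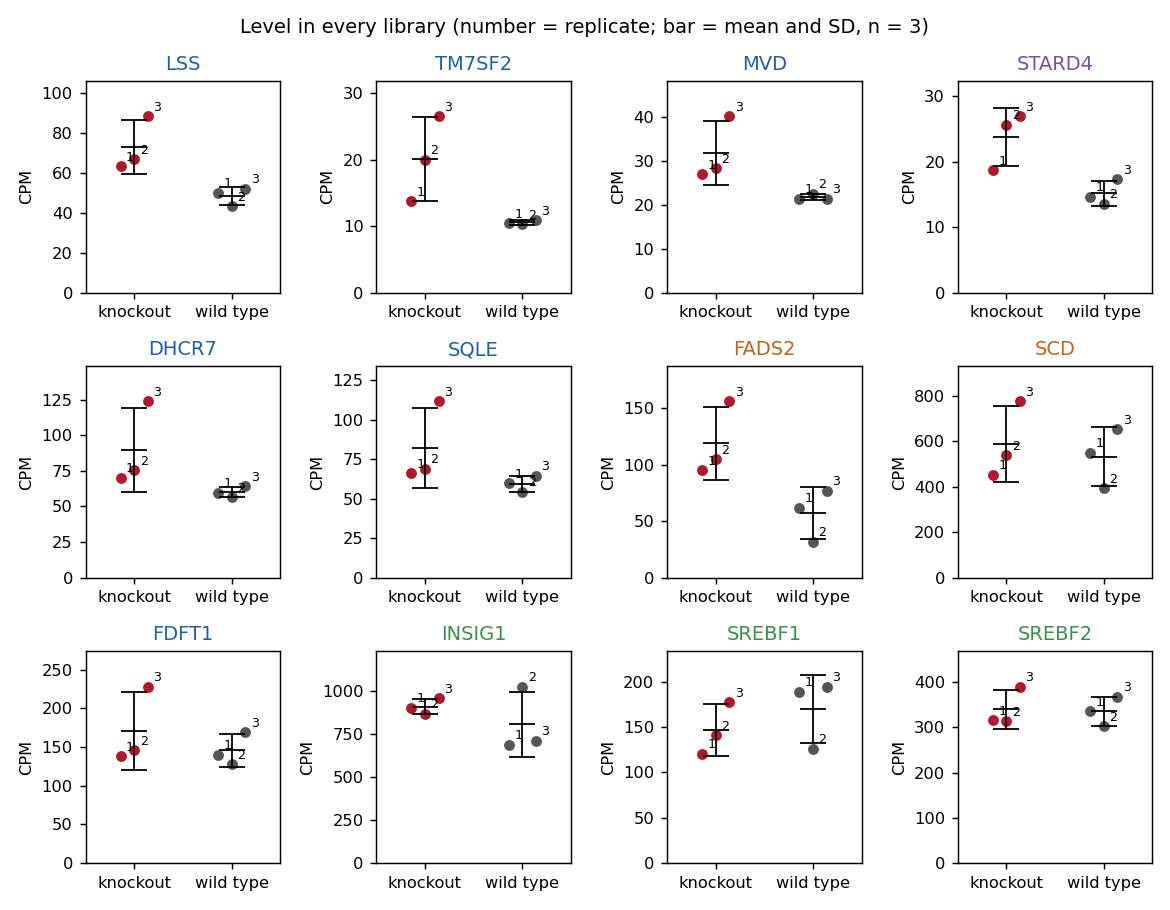
CPM in every library for 12 members, knockout (red) left of wild type (grey); numbers mark replicates and bars the mean and SD (n = 3). LSS, TM7SF2, MVD, STARD4, DHCR7, SQLE and FADS2 show no overlap between the groups, while SCD, FDFT1, INSIG1, SREBF1 and SREBF2 do.

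The 7 enzymes of the precursor and mevalonate steps had a median log2 fold change of 0.32, with MVD as the one call. ACAT2, which joins acetyl-CoA units, was at 0.32, HMGCS1, which makes the next intermediate, at 0.32, and the mevalonate kinase MVK at 0.43. ACAT2 shares 397 exon bases with TCP1 on the opposite strand, so reads of these genes may not be fully told apart. Over all libraries TCP1 had 81596 reads and ACAT2 14291. IDI1, the isomerase of isopentenyl diphosphate, was at 0.34 and FDPS, which makes farnesyl diphosphate, at 0.28. For IDI1 and FDPS all knockout libraries lay above all wild-type libraries, yet neither passed the test (edgeR adjusted p = 0.119 and 0.180). PMVK, the second kinase, had a log2 fold change of -0.17 (adjusted p = 0.233) and was the only sterol branch enzyme below 0.

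The 11 enzymes from squalene to cholesterol all had fold changes above 0, with a median of 0.39 on the log2 scale and 2 calls, LSS and TM7SF2. DHCR7, which makes cholesterol in the last reduction, had 70.2, 75.5 and 124 CPM in knockout, against 59.6, 56.6 and 64.2 CPM in wild type. Knockout replicate 3 stood far above the other knockout libraries, which were themselves above wild type. The log2 fold change was 0.58 (SE 0.21, edgeR adjusted p = 0.0931).

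SQLE, squalene epoxidase, had 66.1, 68.9 and 112 CPM in knockout, against 59.7, 54.4 and 64.6 CPM in wild type, in the same arrangement. Its log2 fold change was 0.47 (SE 0.20, edgeR adjusted p = 0.146). FDFT1, squalene synthase, was the sterol branch enzyme with the highest CPM and had 138, 146 and 228 CPM in knockout, against 140, 127 and 170 CPM in wild type. Only knockout replicate 3 lay above wild type, at a fitted log2 fold change of 0.23 (SE 0.21, edgeR adjusted p = 0.466).

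The remaining members of this stretch were not called. They are the demethylase CYP51A1, the methylsterol oxidase MSMO1, the decarboxylating dehydrogenase NSDHL, the ketosteroid reductase HSD17B7, the isomerase EBP and the desaturase SC5D, with log2 fold changes of 0.38, 0.15, 0.21, 0.41, 0.39 and 0.06 in that order. Reads of HSD17B7 are uncertain, since its 2 pseudogenes held reads equal to 28.0% of its own.

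By edgeR the fatty acid branch had 0 calls among 6 tested genes, with 2 higher at an unadjusted p of 0.05 and 2 called by DESeq2. It had a median log2 fold change of 0.25, against 0.36 for the sterol branch. The difference between the branches was not tested. FADS2, a fatty acid desaturase, had the largest fold change of all members. It had 95.4, 105 and 156 CPM in knockout, against 62.2, 31.9 and 77.1 CPM in wild type. The groups did not overlap, but wild type replicate 2 was far below the other wild-type libraries. The log2 fold change was 1.06 (SE 0.33, edgeR adjusted p = 0.0620), and 0.77 without wild type replicate 2. FADS1, its neighbour, was at 0.37 (adjusted p = 0.439), and the 2 genes share 490 exon bases on opposite strands, so their reads may not be fully told apart.

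SCD, which desaturates stearate to oleate, had the highest CPM of the branch, with 454, 539 and 776 CPM in knockout, against 551, 395 and 653 CPM in wild type. The groups overlapped, with knockout replicate 3 the highest library. The log2 fold change was 0.15 (SE 0.24, edgeR adjusted p = 0.702). ACLY, which supplies cytosolic acetyl-CoA to both branches, had 411, 454 and 498 CPM in knockout, against 381, 393 and 370 CPM in wild type. Its groups did not overlap and its spread was small, at a log2 fold change of 0.25 (SE 0.08, edgeR adjusted p = 0.0647). FASN, the chain-building synthase, was at 0.26 and ACACA, the carboxylase, at -0.06 (adjusted p = 0.433 and 0.833).

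**Figure D3:**
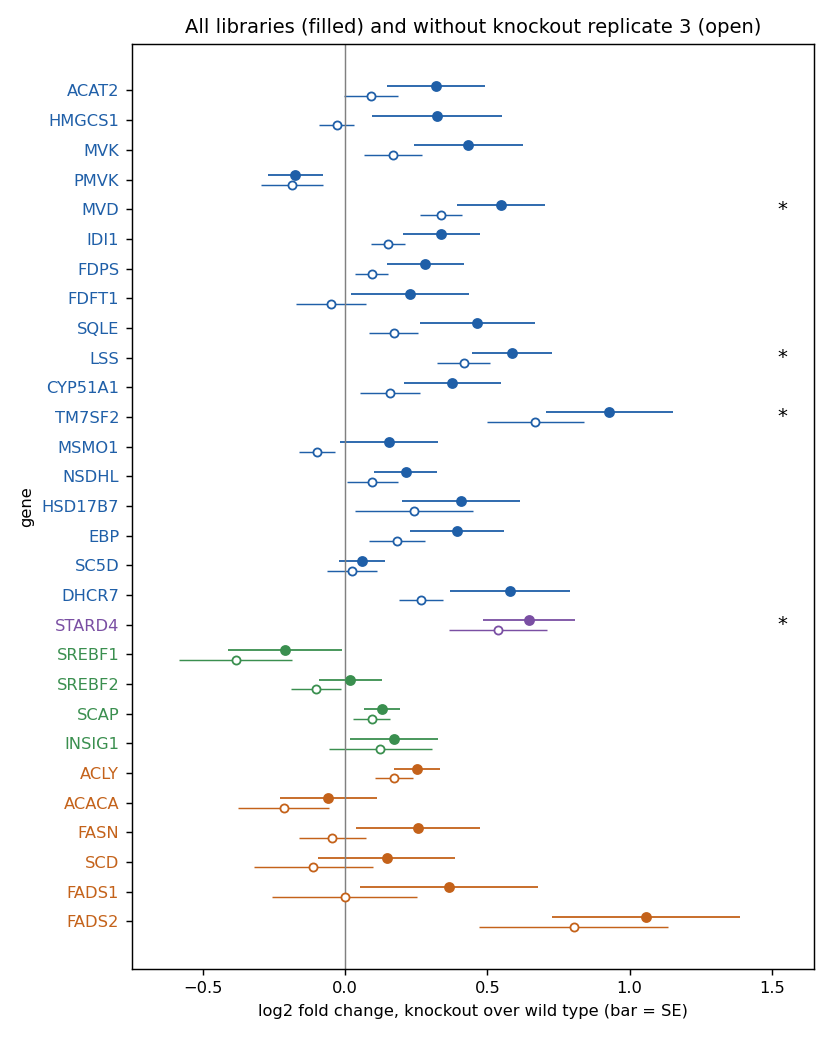
Fitted log2 fold change, knockout over wild type, with its SE for the 29 tested members with all libraries (filled) and without knockout replicate 3 (open); asterisks mark the 4 members called with all libraries. Most values move toward 0 without that library, and MVD, LSS and TM7SF2 keep their call.

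The 4 genes of the SREBP machinery had a median log2 fold change of 0.07, with 0 calls by edgeR and 0 genes at an unadjusted p of 0.05. SREBF2 had 316, 313 and 390 CPM in knockout, against 336, 303 and 368 CPM in wild type. The groups overlapped, again with knockout replicate 3 the highest, at a log2 fold change of 0.02 (SE 0.11, edgeR adjusted p = 0.924), whose sign turned under several settings. SREBF1 had 120, 141 and 178 CPM in knockout, against 189, 126 and 195 CPM in wild type, where wild type replicate 2 fell among the knockout libraries. Its log2 fold change was -0.21 (SE 0.20, edgeR adjusted p = 0.482). It shares 556 exon bases with RAI1 on the opposite strand.

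INSIG1, which retains SCAP and is itself a target of SREBP, had 901, 867 and 954 CPM in knockout, against 685, 1023 and 708 CPM in wild type. Here wild type replicate 2 was the highest of the 6 libraries, the reverse of its place for the fatty acid genes. The log2 fold change was 0.17 (SE 0.15, edgeR adjusted p = 0.458) with all libraries and 0.38 (adjusted p = 0.0217) without wild type replicate 2. SCAP was at 0.13 (adjusted p = 0.187). With both knockout replicate 3 and wild type replicate 2 left out, INSIG1 and FADS2 were called higher and SREBF1 and ACACA lower, beside MVD and LSS, which were still called.

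Every knockout library lay above every wild-type library for 11 of 29 members (37.9%), against 22.2% of all genes. The reverse held for 0 members, against 21.4% of all genes. Beyond this, the members shared the library in which they were high. Knockout replicate 3 was the highest of the 6 libraries for 24 of 29 members (82.8%), among them 16 of 18 sterol enzymes and 5 of 6 fatty acid enzymes, against 19.9% of all genes. Set against the wild-type mean, the median sterol enzyme was higher on the log2 scale by 0.05 in knockout replicate 1, by 0.20 in knockout replicate 2 and by 0.70 in knockout replicate 3.

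Knockout replicate 3 exceeded the mean of the other 2 knockout libraries by a median of 0.55 on the log2 scale for the sterol enzymes and 0.64 for the fatty acid enzymes, against 0.0089 for all genes. For 15 of 18 sterol and 5 of 6 fatty acid enzymes this was past the 95th percentile of the 9973 genes with a mean of at least 5 CPM. Wild type replicate 2 differed in another way. It lay below the mean of the other 2 wild-type libraries by a median of 0.54 (a difference of -0.54) for the fatty acid enzymes, against -0.07 for the sterol enzymes, and 5 of 6 fatty acid enzymes but 0 of 18 sterol enzymes were below the 5th percentile.

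**Figure D4:**
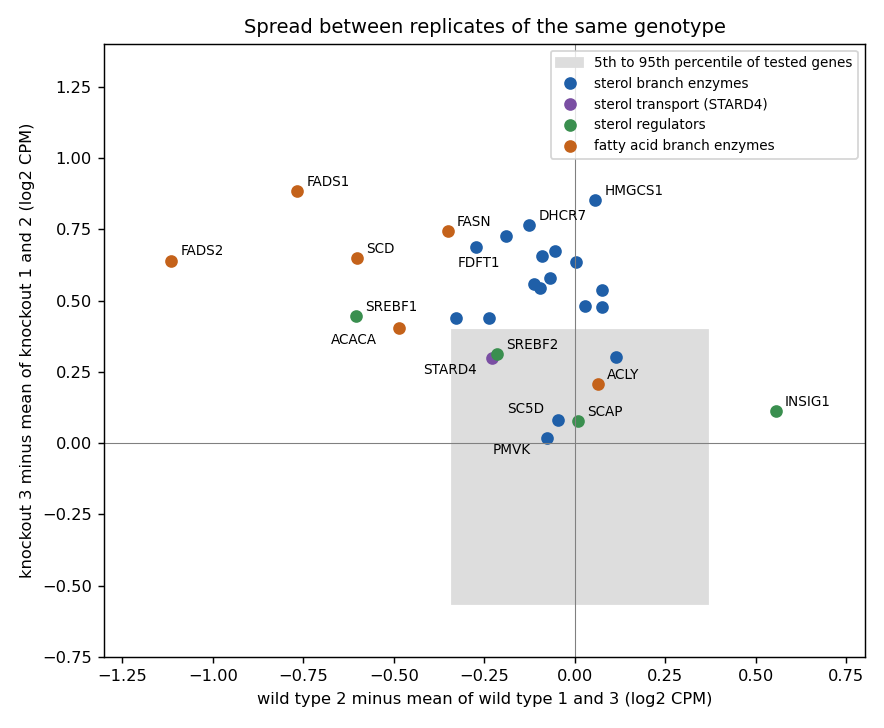
For each tested member, the difference of knockout replicate 3 from the other knockout libraries (vertical) against that of wild type replicate 2 from the other wild-type libraries (horizontal), in log2 CPM; the grey box spans the 5th to 95th percentile of genes with at least 5 CPM. Sterol enzymes (blue) lie mostly above the box, while 5 of 6 fatty acid enzymes (orange) lie above and to the left of it.

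The SD of log2 CPM had a median of 0.345 in knockout and 0.0733 in wild type for the sterol enzymes, and was larger in knockout for 18 of 18, against 62.5% of all genes. For the fatty acid enzymes the medians were 0.385 in knockout and 0.329 in wild type, and for all genes 0.157 in knockout and 0.112 in wild type. For the genes with a mean of at least 5 CPM they were 0.125 in knockout and 0.0876 in wild type. The SD was larger in knockout for 64.8% of those genes. Summed over the sterol branch, the level was 941, 1022 and 1474 CPM in knockout, against 888, 872 and 961 CPM in wild type. Summed over the fatty acid branch it was 1448, 1608 and 2240 CPM in knockout, against 1541, 1240 and 1703 CPM in wild type. In the sterol sums knockout replicate 3 stood far above the other libraries. Knockout replicate 1 lay within the wild-type range on this scale, but just above it without TMM scaling (949 CPM, against at most 938 CPM in wild type) and in TPM (699 TPM, against at most 694 TPM). In the fatty acid sums the groups overlapped. In bulk RNA, a change per cell and a change in the mix of cells cannot be told apart.

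Per transcript length, in TPM as the authors deposited it and summed per gene, INSIG1 was the most abundant member. Among the sterol enzymes FDPS led with a mean of 152 TPM over the 6 libraries, followed by FDFT1 with 142 and EBP with 69.1 TPM. Their ranges, 133 to 200.5 TPM for FDPS and 116 to 194 TPM for FDFT1, overlap, whereas EBP stayed at or below 93.1 TPM. For FDPS, 36.25 to 42.5% of reads were assigned to retained-intron transcripts, and the part of this share in its TPM was not tested. In the fatty acid branch ACLY had 119, SCD 97.2 and FASN 60.0 TPM, and the range of SCD overlaps those of both ACLY and FASN. The called enzymes lay below FDPS, FDFT1 and EBP, at 36.1 TPM for MVD, 21.9 for LSS and 12.02 for TM7SF2. MVD still stood above uncalled enzymes such as DHCR7, at 33.2 TPM. STARD4 had means of 8.95 TPM in knockout and 4.95 TPM in wild type.

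**Figure D5:**
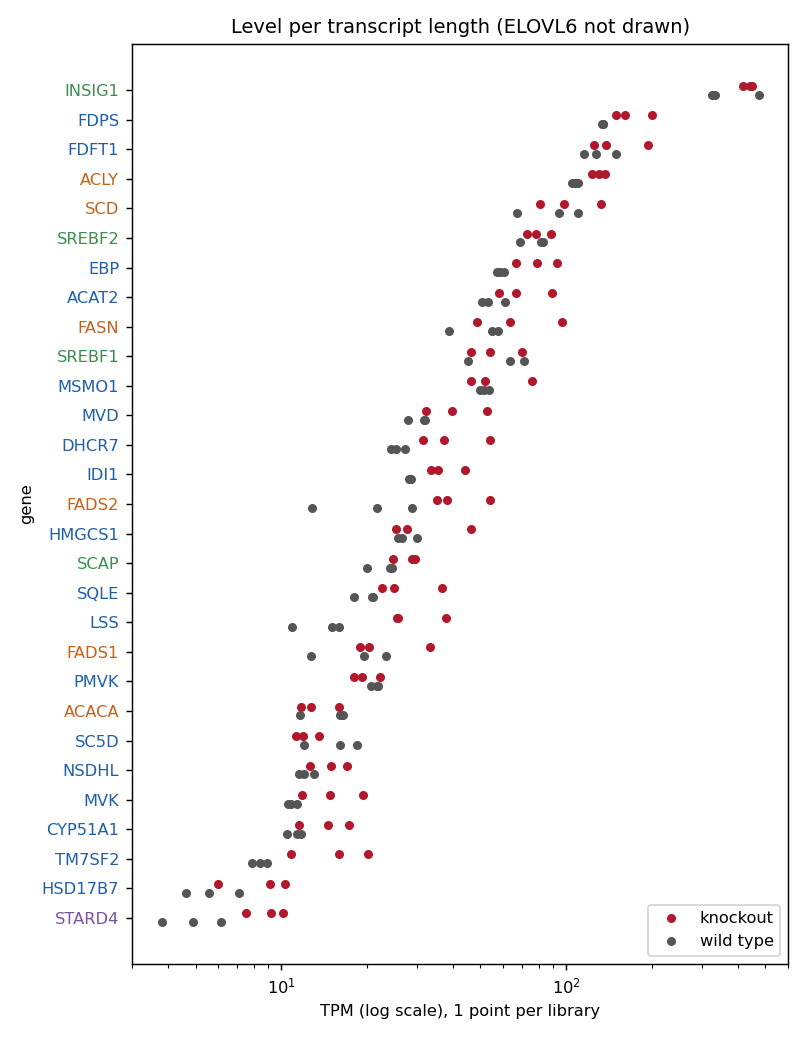
TPM of 29 members in every library on a log axis, knockout (red) drawn above wild type (grey) for each gene, ordered by mean. INSIG1, FDPS, FDFT1 and ACLY are at the top and STARD4 and HSD17B7 at the bottom.

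Genes around the pathway were counted from lists of related steps, whose called shares are to be read against the 21.1% of all genes called (11.4% higher, 9.72% lower). Counts at an unadjusted edgeR p of 0.05 are to be read against 2595 higher and 2308 lower of 13131 genes. Of 4 other sterol synthesis genes tested, 0 were called at an adjusted p of 0.05, and 1 was higher at an unadjusted p of 0.05. The most abundant was LBR, a sterol reductase of the nuclear membrane, at a log2 fold change of -0.09 (edgeR adjusted p = 0.412). Of 9 genes that use isoprenoids, edgeR called 0 higher and 2 lower in knockout (0 higher and 5 lower at an unadjusted p of 0.05), a called share of 22.2%, namely PGGT1B (-0.61, adjusted p = 0.0219) and FNTA (-0.21, adjusted p = 0.0465), subunits of the enzymes that attach prenyl groups to proteins.

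Of 10 genes of SREBP processing and sterol-regulated degradation, 1 was higher and 4 were lower, a called share of 50.0%. ERLIN1 was higher (0.59, adjusted p = 0.0133), while its partner in endoplasmic reticulum degradation ERLIN2 was lower (-0.45, adjusted p = 0.0119). Also lower, and named after their values were seen, were MBTPS2, a protease that cleaves SREBP, and RNF139.

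Of 12 genes of cholesterol uptake, storage and transport, 2 were higher and 0 lower (5 higher and 1 lower at an unadjusted p of 0.05), a called share of 16.7%. They were NPC1, which exports cholesterol from lysosomes (0.59, adjusted p = 0.0087), and STARD3 (0.26, adjusted p = 0.0424). Of 5 LXR and efflux genes tested, 0 were called and 1 was higher at an unadjusted p of 0.05, and the most abundant, NR1H2, was at -0.09 (edgeR adjusted p = 0.253). Of 17 other fatty acid synthesis genes, 2 were higher, the citrate carrier SLC25A1 (0.49, adjusted p = 0.0287) and the desaturase SCD5 (0.81, adjusted p = 0.0496), and 1 was lower, the elongase ELOVL7 (-1.13, adjusted p = 0.0404), at under 1 CPM. That is a called share of 17.6%. Of 12 genes of fatty acid activation and oxidation, 1 was higher and 1 lower (16.7% called), and the lower one was ACSL5, which activates fatty acids (-0.40, adjusted p = 0.0188).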

How the data were processed

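Per the labels' protocols, the libraries were made from polyadenylated RNA with a stranded mRNA kit. The authors deposited a Salmon table per library with, per the file headers, length, effective length, TPM and estimated count for 177456 transcripts. Salmon 1.6.0, FastQC 0.11.9 and hg38 come from the submitters' processing notes. Not given in the sources used here are the transcriptome release, the library type, the use of strand and any bias options. The design text says knockdown, and the groups follow the sample labels, which say knockout.

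Transcripts were joined to GENCODE 29 genes, which may not be the authors' release, with versions ignored. Of them 167027 matched, and 10429 without a gene held 3.59 to 3.82% of reads and stayed out. Summing by gene gave 35052 genes, whose estimated counts were rounded. Groups were compared by edgeR 4.0.16 (R 4.3.3, quasi-likelihood) with TMM scaling, the default filterByExpr filter (minimum count 10) and Benjamini-Hochberg adjustment over all 13131 genes at 0.05, with 4 residual degrees of freedom. The test was also run on simulated counts, drawn for each gene separately. These held no shift shared by many genes of a library, so they cannot show how the test behaves where such shifts occur. CPM are TMM-scaled, and log2 values for replicate spread used a prior count of 2. The deposited TPM were summed per gene and used only for levels. The deposited effective lengths were identical in all libraries. Promoters are from RefSeq.

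Values were given for every called member, INSIG1, SREBF1, SREBF2, the most abundant enzyme of each branch and the 3 largest uncalled changes. ACLY was added after its values were seen. In context lists up to 3 called genes of smallest p were named, otherwise the gene of highest level. Some genes that this rule names are not reported here. Members and lists were chosen with earlier results of these data known. Alternatives were other scalings, no filter, DESeq2, limma-voom, length and GC corrections, a replicate block and leaving out libraries.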

Additional observations from a re-analysis of the deposited data

How the results depend on the processing

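Over 15 alternatives, 374 of 435 results for the 29 tested members kept their direction and their side of the threshold. Most members were uncalled and kept their side by staying uncalled, so this count says little about the calls. Of the other results, 27 lost a call, all among the 4 called members, 10 gained a call and 24 turned in sign. DESeq2 called 7 members higher, 2 of them in the fatty acid branch, where edgeR called 4 and 0. It called 1854 higher and 1741 lower of 19993 genes fitted, with all 30 members among them. An effective length offset called 1 member higher, 1 in the sterol branch, and 722 higher and 661 lower of all genes, where 1494 and 1276 were called without it. Leaving out each replicate in turn gave 0 to 1370 genes higher and 0 to 1388 lower, 0 to 4 members higher, 0 to 3 sterol enzymes and 0 to 1 fatty acid enzymes. The median log2 fold change then ran from 0.15 to 0.50 in the sterol branch and from -0.0237 to 0.36 in the fatty acid branch, lowest without knockout replicate 3. All genes called were 741 higher and 665 lower without knockout replicate 1, 929 and 792 without knockout replicate 2, 0 and 0 without wild type replicate 1, and 210 and 148 without wild type replicate 3. The causes were not tested.

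Without knockout replicate 3 the sign turned for HMGCS1 (-0.0303, up to 0.4722 over the libraries left out in turn), FDFT1 (-0.0493, up to 0.3589), MSMO1 (-0.0995, up to 0.282), SREBF2 (-0.1024, up to 0.0888), FASN (-0.0453, up to 0.3919), SCD (-0.1114, up to 0.3164) and FADS1 (-0.0021, up to 0.6017). Leaving out both knockout replicate 3 and wild type replicate 2 was chosen after seeing the data. It called 4 members higher and 2 lower, with 1 fatty acid enzyme in each direction, beside 1764 higher and 1610 lower of 13181 genes. This setting gave a median of 0.13 in the sterol branch and -0.18 in the fatty acid branch. The sign then turned for HMGCS1 (-0.0075), FDFT1 (-0.13), MSMO1 (-0.10), SREBF2 (-0.17), FASN (-0.15), SCD (-0.28) and FADS1 (-0.21). Elsewhere it turned for SC5D (-0.40) and SREBF2 (-0.0141) with the length offset, SREBF2 with upper-quartile factors (-0.0021), SREBF2 (-0.094) and SCAP (-0.0123) with the GC trend removed, SREBF2 (-0.05) and SCD (-0.03) without wild type replicate 2, and ACACA without knockout replicate 1 (0.02), knockout replicate 2 (0.0005) or wild type replicate 3 (0.0601), with a low of -0.2167 without knockout replicate 3.

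Same-numbered libraries correlated at -0.092, 0.106 and 0.196, and differently numbered ones at -0.239 to 0.169. These values overlap, so they cannot show whether the numbers pair the libraries. The lowest, -0.239, was that of knockout replicate 3 with wild type replicate 2. On the first principal component of all genes tested, knockout replicate 3 lay at -21.0, against -29.8 and -35.5 for the other knockout libraries. Wild type replicate 2 lay at 13.5, against 37.9 and 34.9 for the other wild-type libraries. With a replicate block, 4 members were called higher, among them 1 fatty acid enzyme, FADS2, while MVD was not called (adjusted p = 0.0586). Of all genes, 1225 were then called higher and 1093 lower. Counts of ELOVL6 were too low to test.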

Other observations

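ABCA1, the cholesterol efflux pump, chosen after its values were seen, had 9.92, 22.2 and 22.8 CPM in knockout, against 62.5, 9.49 and 61.1 CPM in wild type, a log2 fold change of -1.27 (edgeR adjusted p = 0.210). Wild type replicate 2 was the lowest of the 6 libraries.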
